A study of Homo sapiens with 4 samples.

Results

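The genes described here are Retn, Ghr, Pcx, Decr1, Pex13 and Pex11c, grouped under the heading of adipose hormone, lipid oxidation and peroxisome genes. They are 6 of the 23698 mouse loci in the deposited tables, taken by gene symbol, and each symbol occurred once. The 6 were selected on the FPKM values of these same 4 libraries, mainly the contrasts with the docetaxel-treated efficient tumour. The values below are therefore a description, carry no test and support no claim about a pathway.

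RNA was sequenced from 4 tumours grown under the skin of Balb/c nude mice, which lack a thymus and mature T cells, from MDA-MB-231, an established line of human triple-negative breast cancer. The caspase-3 efficient pair is 1 tumour with no treatment and 1 from a mouse given docetaxel, a taxane that stabilises microtubules. The caspase-3 inhibited pair, again 1 untreated and 1 docetaxel tumour, grew from cells cultured with Z-DEVD-FMK, an inhibitor of that apoptosis protease, before grafting. Docetaxel was given at 15 mg/kg when tumours measured 12 mm². All 4 RNA samples are labelled as depleted of ribosomal RNA. The inhibitor is named for the cultured graft cells, and caspase-3 activity in the grown tumours or the host tissue was not analysed here. Each condition is 1 library, so no spread between animals is known and no p-value is given. The loci are those of the mouse, while the labels give the organism as Homo sapiens. Human tumour reads that matched mouse sequence are not stated to have been removed, so host and tumour transcripts cannot be told apart in these values. Where 4 values follow each other, the efficient pair comes first, and the untreated tumour first in each pair.

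Resistin, the product of Retn, is a hormone that mouse white fat cells secrete, and it is known for its link to insulin resistance. The growth hormone receptor passes its signal through the kinase Jak2 to the transcription factor Stat5, and in fat it promotes the release of fatty acids. Pyruvate carboxylase, encoded by Pcx, makes oxaloacetate in mitochondria, which feeds glucose synthesis in liver and citrate export for fatty acid synthesis in fat cells. Decr1 encodes a mitochondrial dienoyl-CoA reductase, an auxiliary enzyme that lets unsaturated fatty acids enter beta-oxidation. Peroxisomes also oxidise fatty acids: Pex13 sits in the membrane complex at which enzymes are imported, and Pex11c belongs to the Pex11 family that elongates the membrane before division.

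All 6 genes had their highest value in the docetaxel-treated efficient tumour. For 5 of them the deposited bounds in that library lay above those in each of the other 3 libraries, and Pex13 was the exception. Among the other 3 libraries the bounds overlapped in all 3 pairs for every one of the 6 genes. The genes were chosen mainly on the docetaxel efficient library, and the share of all loci with either pattern was not counted. Where Retn and Pex11c were listed at 0 their bounds were 0 and 0, so the zeros settled those comparisons. In bulk tissue, a change in the number of cells that hold a transcript and a change of its amount per cell cannot be told apart.

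**Figure D1:**
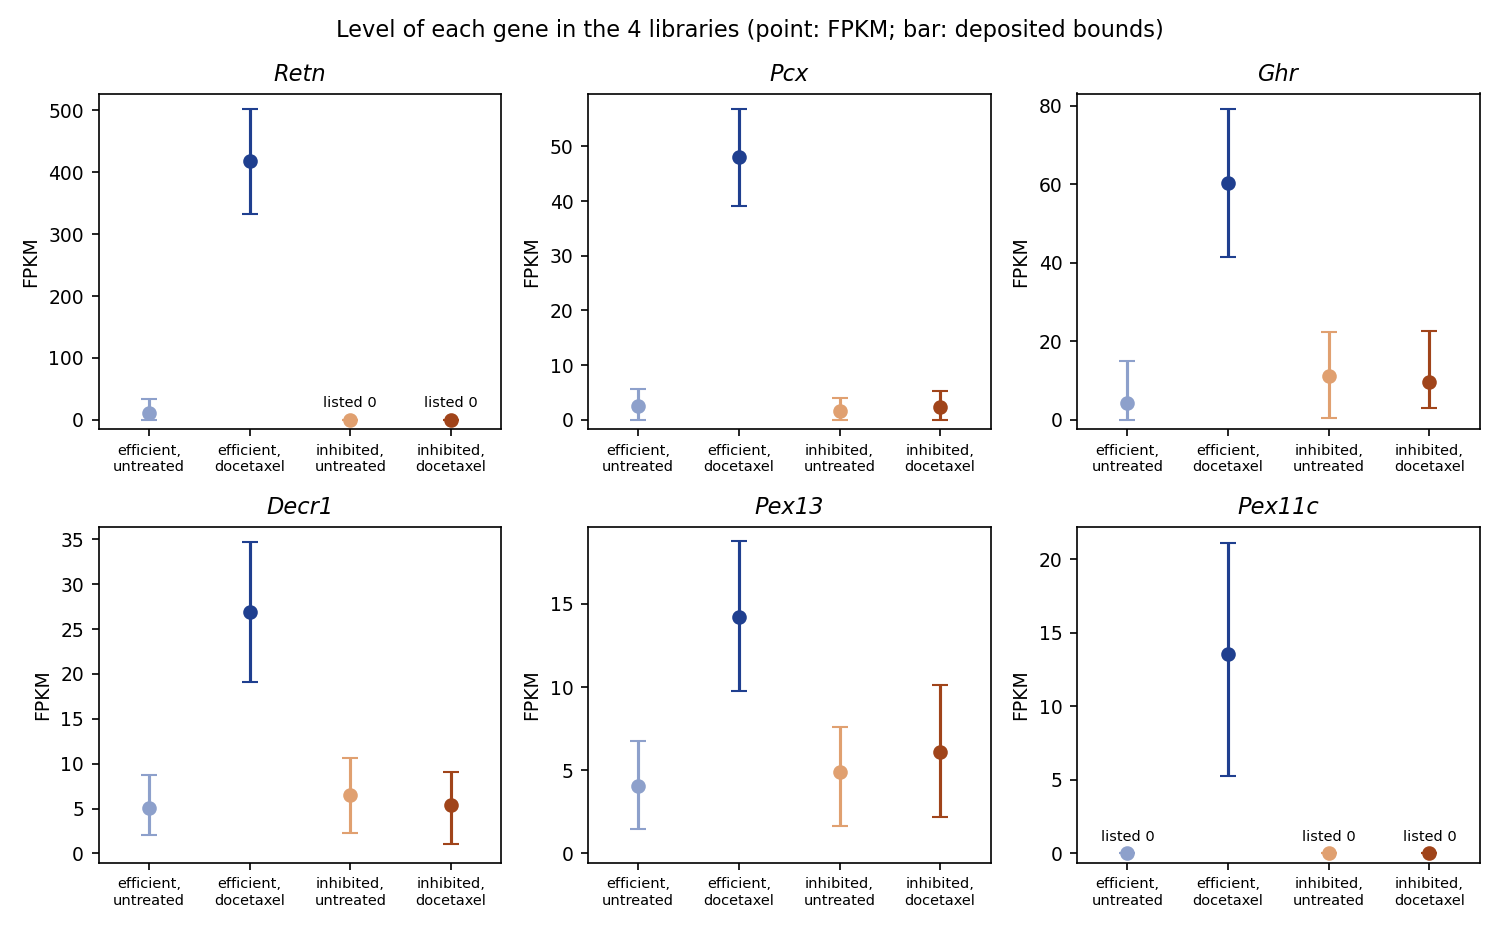
FPKM (fragments scaled to transcript length and library size) of each of the 6 genes on the vertical axis for the 4 libraries, with 1 point per library and the deposited lower and upper bounds as a bar; each panel has its own scale. The docetaxel-treated efficient library holds the highest point in every panel, from 13.6 FPKM for Pex11c to 417 FPKM for Retn.

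Retn (mm9, chromosome 8, 3655770 to 3659818) was at 10.5 FPKM in the untreated efficient tumour, with deposited bounds of 0 and 33.6. In the docetaxel efficient tumour it was at 417 FPKM, with bounds of 333 and 502, and in both inhibited tumours it was listed at 0. The resistin gene was thus high in 1 library, and its bounds there did not meet those of the untreated efficient library. The ratio of the efficient libraries was 39.8, and the ratio of the closest bounds (lower of the one over upper of the other) was 9.91. The untreated value corresponded to about 1.91 fragments and the docetaxel value to about 97.9, estimated as described in the processing section, so the size of the ratio rests on the low library. Retn stood at percentile 99.6 of the loci above 0 in the docetaxel efficient library.

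Ghr (chromosome 15, 3267760 to 3533230) was at 4.30 FPKM (bounds 0 to 14.9) in the untreated efficient and 60.3 FPKM (41.4 to 79.2) in the docetaxel efficient tumour. In the inhibited tumours it was at 11.1 FPKM (0.563 to 22.5) untreated and 9.78 FPKM (3.01 to 22.6) with docetaxel. The receptor gene was above 0 in all 4 libraries, and the docetaxel efficient library alone stood clear of the others. Its value there was 14.0 times that of the untreated efficient and 6.16 times that of the docetaxel inhibited tumour, with closest-bound ratios of 2.78 and 1.83. The docetaxel efficient value corresponded to about 40.7 fragments and the other 3 to between 2.25 and 5.17.

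Pcx (chromosome 19, 4510472 to 4621752) was at 2.54 FPKM (0 to 5.59) untreated and 48.0 FPKM (39.1 to 56.8) with docetaxel in the efficient tumours. It was at 1.71 FPKM (0 to 3.99) and 2.28 FPKM (0 to 5.33) in the untreated and docetaxel inhibited tumours. Of the 6 genes this value of pyruvate carboxylase rested on the most fragments, about 118, against 4.85 in the untreated efficient tumour and 2.91 in each of the inhibited ones. The docetaxel efficient value was 18.9 times the untreated efficient and 21.0 times the docetaxel inhibited value, with closest-bound ratios of 7.01 and 7.34. Lrfn4 lies inside the span of Pcx over 3884 bp, and a stranded library kit is not stated, so reads of the 2 genes may not be separable there. Lrfn4 was at 1.47 (0 to 3.41), 3.34 (1.02 to 5.61), 9.06 (3.83 to 13.8) and 6.60 FPKM (2.05 to 11.3). Its order of values differs from that of Pcx, with both inhibited libraries above both efficient ones. The bounds of both inhibited libraries overlap those of the docetaxel efficient one, so that order is not set beyond the bounds.

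Decr1 (chromosome 4, 15844387 to 15872654) was at 5.06 FPKM (2.02 to 8.75) untreated and 26.9 FPKM (19.1 to 34.7) with docetaxel in the efficient tumours. In the inhibited tumours it was at 6.49 FPKM (2.27 to 10.6) untreated and 5.42 FPKM (1.01 to 9.09) with docetaxel. The reductase gene had a lower bound above 0 in all 4 libraries, so its low level was measured as well as its high one. The ratios were 5.32 against the untreated efficient and 4.96 against the docetaxel inhibited tumour, with closest-bound ratios of 2.18 and 2.10. These values corresponded to about 47.7 fragments in the docetaxel efficient library and 4.97 to 7.96 in the other 3.

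Pex13 (chromosome 11, 23546479 to 23565935) was at 4.07 FPKM (1.45 to 6.76) and 14.2 FPKM (9.74 to 18.8) in the untreated and docetaxel efficient tumours. It was at 4.87 FPKM (1.63 to 7.59) and 6.10 FPKM (2.17 to 10.1) in the untreated and docetaxel inhibited tumours. The import gene varied least of the 6: its docetaxel efficient value was 3.496 times the untreated efficient value, and its bounds overlapped those of the docetaxel inhibited library, where the ratio was 2.33. Pex13 overlaps the start of Pus10, a pseudouridine synthase gene, by 262 bp, and Pus10 was at 2.68, 4.90, 4.11 and 4.41 FPKM.

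Pex11c (chromosome 8, 3458817 to 3467648) was at 13.6 FPKM (5.28 to 21.1) in the docetaxel efficient tumour, or about 12.9 fragments, and listed at 0 in the other 3. A listed 0 gives no level in these tables, so no ratio is given for this division factor, and the same holds for Retn against either inhibited library. Pex11c and Retn lie close together on chromosome 8, with starts at 3.46 and 3.66 Mb.

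FPKM is a value per transcript length, so levels can be set beside each other across genes. In the docetaxel efficient tumour Retn was followed by Ghr, Pcx, Decr1, Pex13 and Pex11c. The bounds of Ghr and Pcx overlapped, as did those of Pex13 and Pex11c, so these neighbours in the order did not differ beyond their bounds. In the untreated inhibited tumour Ghr was highest of the 6 at 11.1 FPKM, and Retn and Pex11c were listed at 0.

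The first comparison asked how docetaxel-treated and untreated efficient tumours differed. A locus was called higher or lower when log2(FPKM + 1) differed by 1 or more, which is 2-fold on that scale, the deposited bounds did not overlap and 1 of the 2 libraries reached 5 FPKM. All 6 genes were called higher with docetaxel, beside 8.10% of the 667 compared loci (54 loci), while 6 loci or 0.900% were called lower. The members were chosen for this contrast, so nothing is read from that count. The differences were 5.19 for Retn, 3.79 for Pcx, 3.53 for Ghr, 2.20 for Decr1 and 1.59 for Pex13 on the log2(FPKM + 1) scale. The median over the 6 genes was 3.66 with Pex11c at its computed value of 3.87, which is set by the pseudocount, and that of the compared loci was 0.34. Scaling the libraries to a common median lowered the latter to 0.11 and gave 39 higher and 11 lower loci, and quantile normalization gave -0.07, 36 and 18; all 6 genes were called higher under both. When a listed 0 in either library barred a locus, 5 of the 6 genes were called, beside 5.41% of 628 loci.

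The same comparison in inhibited tumours called 0 of the 6 genes, beside 3.81% higher and 1.75% lower of the 630 compared loci (24 and 11). After median scaling these were 14 and 17, and after quantile normalization 15 and 18. Ghr, Decr1 and Pex13 reached 5 FPKM and were compared, while Pcx did not and Retn and Pex11c were listed at 0 in both libraries. The docetaxel differences were -0.17 for Ghr, -0.22 for Decr1, 0.27 for Pex13 and 0.28 for Pcx on the log2(FPKM + 1) scale. The deposited bounds allow from -2.55 to 3.92 for Ghr and from -2.53 to 1.63 for Decr1. The value of Ghr in efficient tumours lay within its bounds here, and that of Decr1 lay above them. In efficient tumours, however, the bounds of the Decr1 difference allow from 1.04 to 3.56. These overlap its bounds in inhibited tumours, so the bounds do not set the 2 states apart. For Pex13 the bounds allow from -1.44 to 2.09, which includes its difference of 1.59 in efficient tumours. For Pcx they allow from -2.32 to 2.66 here and from 2.61 to 5.85 in efficient tumours, and these overlap slightly.

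**Figure D2:**
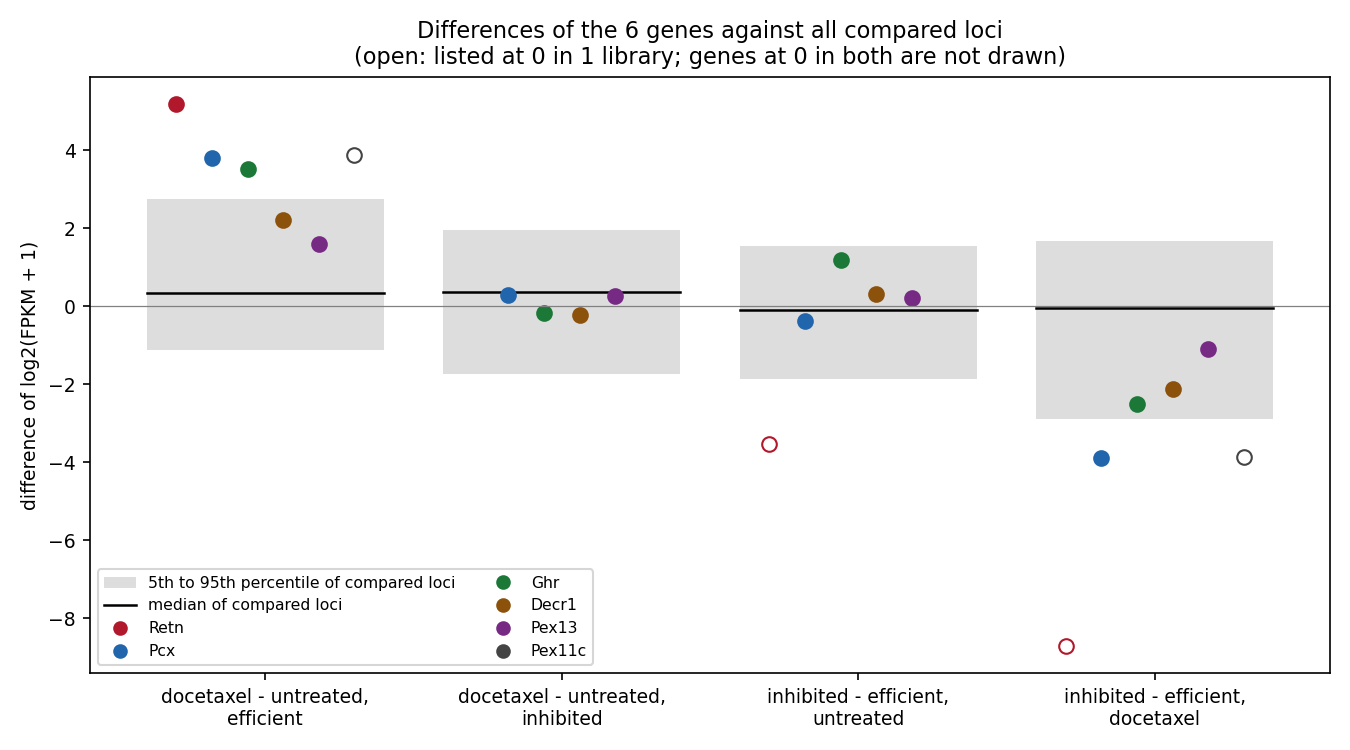
Difference of log2(FPKM + 1) on the vertical axis for the 6 genes (coloured points) in the 4 comparisons, over the median (black line) and the 5th to 95th percentile (grey) of all compared loci; open points have a listed 0 in 1 library and genes listed at 0 in both are left out. The genes lie above the median of 0.34 in the first comparison and below that of -0.05 in the last, and the 2 comparisons share the docetaxel efficient library.

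Inhibited and efficient tumours were next compared without treatment. Of the 6 genes 0 were called, beside 2.51% higher and 3.35% lower of the 597 compared loci. Ghr differed by 1.19, Decr1 by 0.31, Pex13 by 0.21 and Pcx by -0.39 on the log2(FPKM + 1) scale, inhibited minus efficient. Each of these was within its overlapping bounds. The Retn value of 10.5 FPKM in the efficient tumour had a lower bound of 0, so it did not stand apart from the listed 0 of the inhibited one.

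Under docetaxel, 5 of the 6 genes were called lower in the inhibited than in the efficient tumour, beside 9.27% of the 701 compared loci, and 3.99% of those loci were called higher. This comparison shares the docetaxel efficient library, in which the genes were high, with the first. Pcx was lower by a difference of -3.90, Ghr by -2.51 and Decr1 by -2.12, while Pex13 at -1.10 was not called because its bounds overlapped. Retn and Pex11c were called against a listed 0. When such loci were left out, 3 of the 6 genes were called (Pcx, Ghr and Decr1), beside 4.71% of 637 loci.

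The docetaxel difference in inhibited tumours minus that in efficient tumours was -3.51 for Pcx, -3.70 for Ghr, -2.43 for Decr1 and -1.31 for Pex13 on the log2 scale. For Retn and Pex11c it was computed from listed zeros in both inhibited libraries, at -5.19 and -3.87. Of the 6 genes, 5 were lower by 2 or more, beside 9.55% of 775 loci, and the median of those loci was 0.01. This count uses the same 4 libraries that led to the choice of the genes, and no interval enters it. For Pcx, Ghr, Decr1 and Pex13 the bounds of the docetaxel difference overlapped between efficient and inhibited tumours.

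The genes were then set in their places on the chromosomes. Position itself was not used to choose the members, but their FPKM was, and detection varies with position. Values are crowded near the starts of mouse chromosomes in these tables: 15.3% of loci starting in the first 25 Mb were above 0 in at least 3 libraries, against 5.11% beyond. All 6 genes start in those first 25 Mb, between 3.27 Mb for Ghr and 23.5 Mb for Pex13. Of the 23698 loci, 3796 start there. Of the loci above 0 in at least 3 libraries, 580 start there and 1016 beyond. As the members were chosen on FPKM, nothing is read from their count. Among up to 10 loci on each side of a gene, the share above 0 in at least 3 libraries was 33.3% for Ghr, 50% for Retn and Decr1, 69.2% for Pex11c and 70% for Pcx and Pex13.

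The calls among neighbours are read beside the 8.10% of all compared loci called higher. Of the neighbours compared in efficient tumours, 0 of 12 around Pcx and 0 of 5 around Pex11c were called higher with docetaxel, 1 of 8 around Pex13, 1 of 9 around Decr1, 1 of 3 around Ghr and 2 of 10 around Retn. The one beside Ghr was Sepp1, which encodes a selenium transport protein of plasma, at 401 FPKM (356 to 446) untreated and 816 FPKM (756 to 876) with docetaxel. Near Retn, the locus 2400009B08Rik starts 15.4 kb downstream and was at 62.5 FPKM (8.40 to 67.2) with docetaxel in efficient tumours and listed at 0 in the other 3 libraries. Between them 1810033B17Rik was at 3.37 FPKM in that library, and Trappc5, beyond, was at 8.70 untreated and 3.33 with docetaxel. Stxbp2, on the other side of Retn, was at 23.9 and 19.4 FPKM, so neither of the loci next to Retn was called. The other neighbour of Retn called higher was Cd209d, a C-type lectin gene that starts at 3871824 on chromosome 8. In efficient tumours Cd209d was listed at 0 untreated and was at 12.1 FPKM (3.45 to 20.7) with docetaxel.

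**Figure D3:**
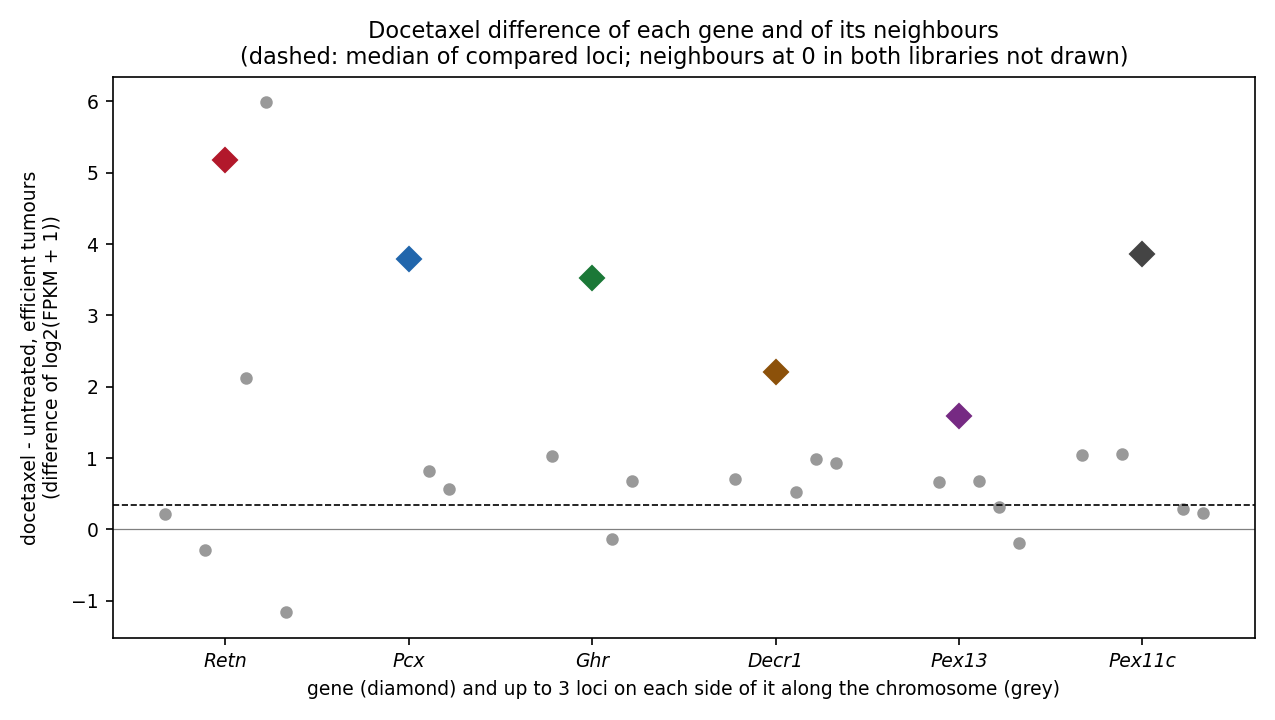
Docetaxel difference in efficient tumours, as log2(FPKM + 1), on the vertical axis for each of the 6 genes (diamonds) and up to 3 loci on each side of it along the chromosome (grey points), with the median of compared loci dashed. Each gene except Retn lies above all of its drawn neighbours; beside Retn, at 5.19, the locus 2400009B08Rik reaches 5.99 against a listed 0.

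Other genes of the same pathways came from 5 lists: the adipokine and growth hormone axis, pyruvate use with glucose and fatty acid synthesis, mitochondrial fatty acid oxidation, peroxisome biogenesis and peroxisomal enzymes. Apart from the 6 genes these lists hold 98 loci of the tables, of which 14 reached 1 FPKM in a library and 75 were listed at 0 in all 4. With docetaxel in efficient tumours 0 of the 3 that could be compared were called in either direction, beside 8.10% higher and 0.900% lower of all compared loci. In inhibited tumours 2 of 4 were called higher with docetaxel and 0 lower, beside 3.81% and 1.75%. Between untreated tumours 0 of 3 were called, beside 2.51% and 3.35%. Under docetaxel 2 of 4 were called higher and 1 lower in the inhibited than in the efficient tumour, beside 3.99% and 9.27%. With 3 or 4 loci compared, these counts are too small to show whether the lists had a trend or none.

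Cpt1a, which encodes the carnitine transferase at the entry of fatty acids into mitochondria, acts upstream of Decr1. It was at 14.1 FPKM (9.26 to 18.5) and 26.1 FPKM (19.7 to 32.2) in the untreated and docetaxel efficient tumours and at 6.002 FPKM (2.60 to 9.36) and 8.02 FPKM (3.47 to 12.5) in the inhibited ones. Its docetaxel difference of 0.84 in efficient tumours fell short of 2-fold, and under docetaxel it was called lower in the inhibited tumour, by a difference of -1.59. Mdh1, the cytosolic malate dehydrogenase, was at 60.1 FPKM (41.7 to 77.3) and 121 FPKM (91.2 to 137) in the efficient tumours. In the untreated and docetaxel inhibited tumours Mdh1 was at 56.1 and 76.6 FPKM, and its difference of 0.997 in efficient tumours lay just under the threshold of 1. Insr, the insulin receptor gene, lies on chromosome 8 near Pex11c and was at 1.31, 3.76, 1.95 and 1.63 FPKM, below the 5 FPKM needed for a comparison.

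Igfbp3 and Cs were highest in another library, the docetaxel inhibited one. Igfbp3, which encodes a carrier of insulin-like growth factor, was at 69.4, 66.5 and 63.0 FPKM in the untreated efficient, docetaxel efficient and untreated inhibited tumours and at 168 FPKM (132 to 202) in the docetaxel inhibited one. Cs, the citrate synthase gene, was at 3.03, 2.31 and 1.70 FPKM in the first 3 of these and at 13.7 FPKM (6.34 to 20.1) in the docetaxel inhibited tumour. Both were called higher in that library against the untreated inhibited and against the docetaxel efficient library. Cs lies far from a chromosome start, where 5% of its neighbours were above 0 in at least 3 libraries.

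The peroxisome lists were hardly measured beyond Pex13 and Pex11c. Of 19 biogenesis loci 16 were listed at 0 in all 4 libraries, among them Pex14, the partner of Pex13 in import, and Pex11a, a relative of Pex11c. Of 24 peroxisomal enzyme loci, Crat and Amacr alone reached 1 FPKM, with highest values of 1.90 and 1.26 FPKM. The neighbourhoods of the biogenesis loci were sparse: besides the 2 members, 0 of these 19 loci had as large a share of detected neighbours as the members did (33.3% or more).

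Markers of fat cells were checked because Retn is a fat cell hormone in mice. Of 22 adipocyte markers 4 reached 1 FPKM: Retn, Cidea, Dgat2 and Lep. Cidea, a lipid droplet protein gene, was at 2.07, 9.76, 11.6 and 12.4 FPKM, so it was as high in the inhibited tumours as in the docetaxel efficient one. Dgat2 was at 1.94, 2.97 and 3.27 FPKM in the untreated efficient, docetaxel efficient and untreated inhibited tumours and listed at 0 in the docetaxel inhibited one. Lep, the leptin gene, was at 1.98 FPKM (0.457 to 3.65) in the docetaxel efficient tumour and listed at 0 in the other 3. Without Retn the markers summed to 4.73 FPKM in the untreated efficient tumour and to between 12.4 and 15.0 FPKM in the other 3. The defining markers Adipoq, Fabp4, Plin1, Cfd and Pparg were listed at 0 in all 4 libraries. For Adipoq and Fabp4 10% and 5% of neighbours were above 0 in at least 3 libraries, and for Cfd, the adipsin gene, 45% were. Listed zeros occur in well detected neighbourhoods for other genes too, such as Cd68 and the peroxiredoxin gene Prdx5, each with 35% of neighbours above 0, so none of these zeros gives a level. The part of fat tissue in the values of the 6 genes was not tested.

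The alpha globin entries above 0, as markers of red blood cells, and genes of a myeloid lectin family were also highest in the docetaxel efficient library. The erythroid markers Slc4a1 and Epb4.2 stayed below 1 FPKM and were highest elsewhere, at 0.916 FPKM in the untreated efficient and 0.914 FPKM in the docetaxel inhibited library. The erythroid list summed to 208, 1768, 936 and 428 FPKM, nearly all of it alpha globin, and its beta globin loci Hbb-b1 and Hbb-b2 were listed at 0 in all 4 libraries. In the macrophage and granulocyte list 2 of 14 loci reached 1 FPKM, Cd209f and Cd209d, and the list summed to 10.3, 69.4, 12.8 and 10.1 FPKM, with Cd68, Csf1r and Lyz2 listed at 0 throughout. Of the skeletal muscle list 1 of 15 loci reached 1 FPKM, with a sum of 1.40 FPKM in the docetaxel efficient library and 0 in the other 3, and all 13 keratinocyte and sebaceous loci were listed at 0. The fibroblast and matrix list had 2 of 12 loci measured and summed to 384, 532, 382 and 596 FPKM, highest in the docetaxel inhibited library. The endothelial list had 2 of 12 measured, with sums between 1.10 and 3.30 FPKM, and the epithelial carcinoma list 2 of 10, with 11.7 FPKM in the docetaxel efficient library and 1.56 to 2.71 in the others. The part of these cells in the values of the 6 genes was not tested.

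Loci whose FPKM divided among the 4 libraries most like that of Retn, Pcx and Ghr were found among 212 candidate loci that reached 20 FPKM. Likeness was measured as a distance, the sum of absolute differences between the shares of 4 libraries divided by 2, which is 0 for equal and 1 for disjoint divisions. The docetaxel efficient library held 97.5% of the summed FPKM of Retn, 88.0% of that of Pcx, 70.5% of Ghr, 61.3% of Decr1, 48.6% of Pex13 and all of Pex11c. Across the 212 loci the median share in that library was 27.5% and the 95th percentile 47.0%. Pex13 and Pex11c did not reach the minimum of 20 FPKM set for these loci. The genes described here were chosen mainly for contrasts with that library, so nothing is read from their shares beside these values.

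Nearest to Retn were Hba-a2 at a distance of 0.02, an alpha globin entry that shares its place with an Hba-a1 entry so that their reads may be split uncertainly, and Akr1c14, an aldo-keto reductase gene, at 0.18. Akr1c14 was also nearest to Pcx, at 0.11, with 7.99 FPKM in the untreated efficient, 48.1 in the docetaxel efficient and 3.997 in the docetaxel inhibited library and a listed 0 in the untreated inhibited one. For Ghr the nearest was the C-type lectin gene Cd209f, at 0.09, followed by an Hba-a1 entry at 0.11 and Cd209g at 0.12. Cd209f and Cd209g start at 4102793 and 4134736 on chromosome 8, near Retn and Cd209d. Within the group, Ghr and Decr1 lay 0.09 apart, Retn and Pcx 0.10, and Decr1 and Pex13 0.13, while Retn and Pex13 were 0.49 apart. These distances rest on the same 4 libraries, whose estimated depths ran from 0.666 to 1.29 times that of the untreated efficient one. Acyp2, Chchd7 and Efemp1 complete the lists of 5.

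**Figure D4:**
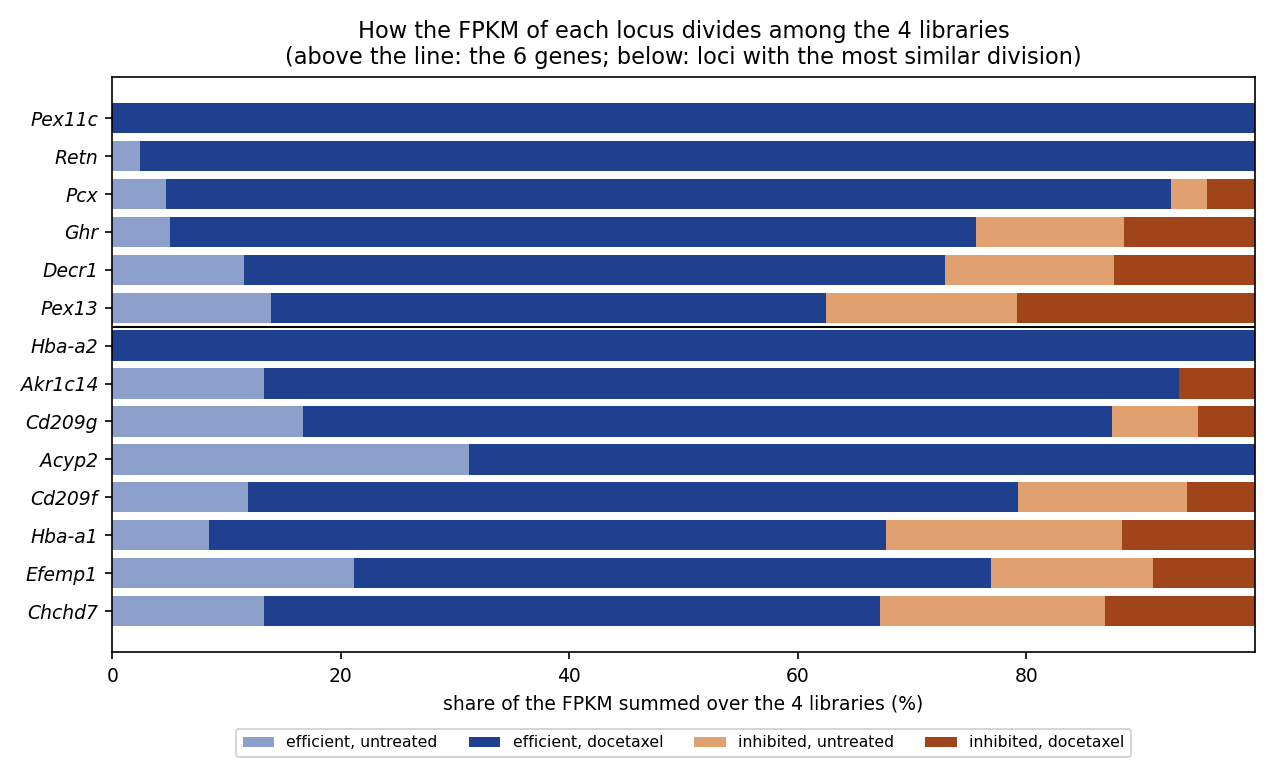
Share of each locus's FPKM, summed over the 4 libraries, that falls in each library, in percent on the horizontal axis, for the 6 genes above the line and the loci with the most similar division below it. The docetaxel efficient share runs from 100% for Pex11c down to 48.6% for Pex13 among the 6 genes.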

How the data were processed

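The submitters' processing notes name TopHat, Cufflinks and the mouse build mm9, with no version. Per the file headers, the authors deposited FPKM for each locus, its 2 confidence bounds, whose level is not stated, and a status. Loci were matched between tables by symbol and position, and 1 was added to each start, as the tracking format is zero-based. Loci with the status LOWDATA (285 per library) were not compared.

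Total counts were not used here. Bounds were taken as 2 SD of a count, which gave the fragment numbers of the 6 genes in the docetaxel efficient library. The same estimate over 497 to 681 loci put the depth of the docetaxel efficient library at 1.29 times that of the untreated efficient one, and those of the untreated and docetaxel inhibited libraries at 0.891 and 0.666 times. Lower values were converted with these depths. Such numbers are rough and cover counting error only.

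The named genes were the 6 members, loci overlapping them and 3 on each side, up to 4 measured loci of each list, and the 5 loci closest in profile to Retn, Pcx and Ghr. Neighbours called higher and list markers at 0 were named after their values were seen, and so was the share of neighbours above 0 used to read a listed 0. Members and lists were chosen with earlier results of these data known. The call rule was tried on simulated counts without variation between animals, with 4-fold changes at loci averaging 20 FPKM or more. Pcx, Decr1, Pex13 and Pex11c average less than that. Simulated counts were as large as the simulated FPKM, which is deeper than the data for Retn and Ghr. In the docetaxel efficient library Retn at 417 FPKM rested on about 97.9 fragments and Ghr at 60.3 FPKM on about 40.7. The trial therefore does not show how reliable the calls of any of the members are. Alternatives were pseudocounts of 0.1 and 5, no minimum or 20 FPKM, median scaling, quantile normalization and no interval criterion. A requirement of values above 0 in both libraries was chosen after seeing the data. Python 3.11.15, numpy 2.4.6 and pandas 2.3.3 were used. Some loci of the lists are not reported here.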

Additional observations from a re-analysis of the deposited data

Results flagged for a closer look

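The docetaxel differences of Ghr and Decr1 had opposite signs in the 2 caspase-3 states, and neither gene was called in inhibited tumours. Ghr differed by 3.53 in efficient and by -0.17 in inhibited tumours on the log2(FPKM + 1) scale, and inhibited minus efficient was -3.70. Decr1 differed by 2.20 and by -0.22, and inhibited minus efficient was -2.43. Each state is 1 pair of libraries, the small negative values lie well within overlapping bounds, and the difference between states was not tested.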

How the results depend on the processing

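Under every alternative tried, 0 of the 6 genes were called for docetaxel in inhibited tumours. Of 120 recomputed differences of the members 0 changed sign after a call. Of these, 110 stayed within their bounds (or within 1 on the log2 scale for the difference of differences) and 10 left them, all 10 involving a listed 0. Part of this was fixed in advance. Retn and Pex11c were listed at 0 in both inhibited libraries and could not be called there under any setting. Their docetaxel differences there, and that of Pex11c between untreated tumours, compared 0 with 0 and could not move. With a pseudocount of 5, 3 genes rather than 5 kept a difference of docetaxel differences of 2 or more (Retn, Pcx and Ghr). Without the interval criterion, 2 genes rather than 0 were called between untreated tumours (Retn and Ghr), and with values above 0 in both libraries 3 rather than 5 under docetaxel. A minimum of 20 FPKM left 4 genes called in each of the first and last comparisons, since Pex13 and Pex11c do not reach it.

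The counts of all loci called, 60, 35, 35 and 93 in the order of the comparisons, depended more on the settings. They became 91 with docetaxel in efficient tumours, 53 between untreated and 142 between docetaxel tumours without a minimum, 25, 13, 12 and 40 with a minimum of 20 FPKM, and 187, 184, 142 and 240 without the interval criterion. With values above 0 in both libraries they were 39, 23 and 56 in these comparisons. The lower libraries of Retn, Pcx and Ghr rest on an estimated 1.91 to 5.17 fragments, which limits the precision of their ratios. No paired analysis was possible because each group is 1 library and the labels give no replicate numbers.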
